A study of Mus musculus with 4 samples.

Results

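The genes of the cytoplasmic ribosomal proteins were examined as a group in maps of accessible chromatin from NMuMG cells, a widely used epithelial line derived from healthy mouse mammary gland. Members were all protein-coding genes of the GENCODE vM1 annotation whose symbol is Rpl or Rps followed by a number, with an optional a, x or l ending, together with Rpsa, Rplp0, Rplp1 and Rplp2. This name rule gave 80 genes out of 22350 protein-coding genes, 48 of the large subunit (Rpl) and 32 of the small subunit (Rps). It uses no measured value. It leaves out a few ribosomal proteins with other names, such as Fau, and takes in 4 paralogues known for restricted or regulated expression, Rpl3l of muscle, Rpl10l and Rpl39l of testis and the p53 target Rps27l.

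Chromatin was probed by ATAC-seq, in which the Tn5 transposase cuts DNA that is not shielded by nucleosomes, and the deposited data are lists of peaks on the mm9 build. The vehicle list and the TGFβ list came from cells in complete medium (with serum and insulin) given vehicle or 5 ng/ml TGFβ1 for 2 h, and the 10 min list came from cells kept for 6 h without serum and insulin and then exposed for 10 min. The labels of the starved vehicle sample and of the starved TGFβ1 sample name the same single list, which is called TGFb10m, and a label of the TGFβ1 sample gives 2 h where its title gives 10 min (the title was followed). The labels give 1 sample per group and no list per replicate was used, so no test between conditions was possible. The lists hold no read counts. Sequencing totals come with the study and were not data here, and in complete medium the vehicle library is the deeper one by them and the TGFβ list is the longer. The intervals given below are 95% Wilson intervals and cover the counting of genes only, not the variation between cultures or libraries.

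A ribosome carries 1 copy of most of its proteins, and a growing cell makes them in nearly equal amounts and in very large numbers, so ribosomal protein genes are among the most heavily transcribed genes of any cell. Their promoters are known to be compact and to lack a strong TATA box as a rule, to fire from a cytosine inside a run of pyrimidines that becomes the terminal oligopyrimidine tract of the mRNA, the element through which mTOR signalling controls their translation, and to bind ETS-family activators such as GABP. TGFβ signals through SMAD proteins and through kinase pathways and brings about an epithelial-mesenchymal transition in NMuMG cells.

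Promoter sequences were read from the mm9 genome around the commonest start of each gene, the start with the most protein-coding transcripts within 50 bp. The first set shows 4 broadly used ribosomal protein genes at which no list held an interval, because the absence of a call there is the exception of this group. It is followed by 3 genes called in the TGFβ and 10 min lists but not in the vehicle list. All sequences run 5′ to 3′ on the gene's strand from 60 bases before the start to base 30 of the transcript, and capitals mark the ETS core CCGGAAG or its reverse complement.
Rpl15 (chr14:19103552-19103641, minus strand): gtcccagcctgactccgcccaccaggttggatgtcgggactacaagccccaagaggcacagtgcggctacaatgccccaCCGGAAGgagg
Rpl3 (chr15:79913807-79913896, minus strand): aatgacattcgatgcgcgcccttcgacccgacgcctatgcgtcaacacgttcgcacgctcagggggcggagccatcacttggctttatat
Rps21 (chr2:179992022-179992111, plus strand): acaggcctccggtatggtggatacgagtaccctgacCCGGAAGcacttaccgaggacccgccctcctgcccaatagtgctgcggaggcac
Rps29 (chr12:70260144-70260233, minus strand): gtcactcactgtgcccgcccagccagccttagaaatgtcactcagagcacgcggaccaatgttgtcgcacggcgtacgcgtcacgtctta
Rpl13 (chr8:125626190-125626279, plus strand): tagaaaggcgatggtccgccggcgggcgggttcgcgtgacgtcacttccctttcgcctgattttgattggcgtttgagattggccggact
Rpl36 (chr17:56752758-56752847, plus strand): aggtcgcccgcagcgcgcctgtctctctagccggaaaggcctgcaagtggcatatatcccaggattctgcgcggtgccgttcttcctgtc
Rpl4 (chr9:64021134-64021223, plus strand): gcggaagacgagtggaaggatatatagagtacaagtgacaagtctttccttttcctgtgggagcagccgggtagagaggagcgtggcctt

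Of the 4 uncalled promoters shown, 2 held the ETS core within this window, at position 20 of the transcript in Rpl15 and at -24 in Rps21 (the position of its first base, counted from +1 at the start, with -1 just before it). None of the 3 promoters missing from the vehicle list alone held it there. For comparison, the next set gives the 6 widest vehicle regions among members that held the ETS core in the same window and were called in all 3 lists.
Rps27l (chr9:66793833-66793922, plus strand): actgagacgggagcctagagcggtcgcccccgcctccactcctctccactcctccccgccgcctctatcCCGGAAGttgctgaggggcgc
Rps10 (chr17:27772192-27772281, minus strand): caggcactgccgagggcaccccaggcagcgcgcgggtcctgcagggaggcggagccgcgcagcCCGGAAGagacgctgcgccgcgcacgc
Rpl37 (chr15:5066553-5066642, plus strand): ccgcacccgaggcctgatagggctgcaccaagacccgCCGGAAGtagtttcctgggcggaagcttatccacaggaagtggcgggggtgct
Rpl31 (chr1:39424636-39424725, plus strand): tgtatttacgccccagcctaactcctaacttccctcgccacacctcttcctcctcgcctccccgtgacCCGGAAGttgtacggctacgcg
Rps6 (chr4:86503287-86503376, minus strand): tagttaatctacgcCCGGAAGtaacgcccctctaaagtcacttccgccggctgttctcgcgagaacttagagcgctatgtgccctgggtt
Rps18 (chr17:34092633-34092722, minus strand): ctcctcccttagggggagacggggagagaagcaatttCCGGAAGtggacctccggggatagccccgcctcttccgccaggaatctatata

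The third set shows 5 of the members with the longest pyrimidine runs in the same window, with every run of at least 7 pyrimidines in capitals. The longest run lay across the annotated start in Rpl14, lay past it in Rpl11, Rpl22 and Rpl13a, and lay before it in Rpl26, where it began at -23.
Rpl11 (chr4:135609279-135609368, minus strand): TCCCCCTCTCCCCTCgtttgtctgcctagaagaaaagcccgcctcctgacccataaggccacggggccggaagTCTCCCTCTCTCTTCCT
Rpl22 (chr4:151699902-151699991, plus strand): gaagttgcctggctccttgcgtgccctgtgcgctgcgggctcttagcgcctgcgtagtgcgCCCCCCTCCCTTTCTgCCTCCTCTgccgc
Rpl13a (chr7:52384089-52384178, minus strand): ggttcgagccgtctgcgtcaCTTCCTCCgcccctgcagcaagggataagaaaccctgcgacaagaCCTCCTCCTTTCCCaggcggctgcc
Rpl14 (chr9:120480572-120480661, plus strand): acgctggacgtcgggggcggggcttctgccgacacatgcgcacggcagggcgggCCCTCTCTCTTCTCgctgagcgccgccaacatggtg
Rpl26 (chr11:68715052-68715141, plus strand): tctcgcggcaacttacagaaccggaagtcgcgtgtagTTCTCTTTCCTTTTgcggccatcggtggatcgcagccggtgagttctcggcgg

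Most ribosomal protein genes had accessible chromatin at a transcription start in every list. A gene counted as called when a region, made from intervals of at least 150 bp merged over gaps under 1000 bp, lay within 1000 bp of any of its annotated starts. The vehicle list called 66 of 80 members (82.5%, interval 72.7 to 89.3%), against 41.0% of all protein-coding genes. The TGFβ list called 70 members (87.5%, 78.5 to 93.1%), against 47.6% of protein-coding genes. The 10 min list called 71 members (88.8%, 80.0 to 94.0%), against 46.3%. The intervals of the 3 lists overlapped for the members, while each list lay far above its background. Large and small subunit genes were alike, with 39 of 48 Rpl genes (81.2%) and 27 of 32 Rps genes (84.4%) called in the vehicle list, and 42 Rpl (87.5%) and 28 Rps genes (87.5%) in the TGFβ list. Without the 4 paralogues the shares were 85.5%, 90.8% and 92.1%.

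The other groups of the translation machinery were called about as often as the members. The 77 genes of the mitochondrial ribosome, which makes the proteins encoded in mitochondrial DNA, were called at 83.1%, 90.9% and 92.2% in the vehicle, TGFβ and 10 min lists. The 66 genes with a symbol of Eef or Eif followed by a number, here called translation factors, were called at 78.8%, 83.3% and 86.4%. This name rule takes in initiation and elongation factors but also other genes, such as the kinase genes Eef2k and Eif2ak3, which were in no list. Of 24 genes of ribosome assembly and rRNA transcription, such as nucleolin (Ncl), fibrillarin (Fbl) and the RNA polymerase I subunit Polr1a, 23, 23 and 24 were called. The intervals of all these groups overlapped those of the members. Among ribosomal proteins outside the name rule 5 of 6 were called in each list, and the exception, Fau, which encodes a small subunit protein fused to a ubiquitin-like domain, was in none.

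**Figure D1:**
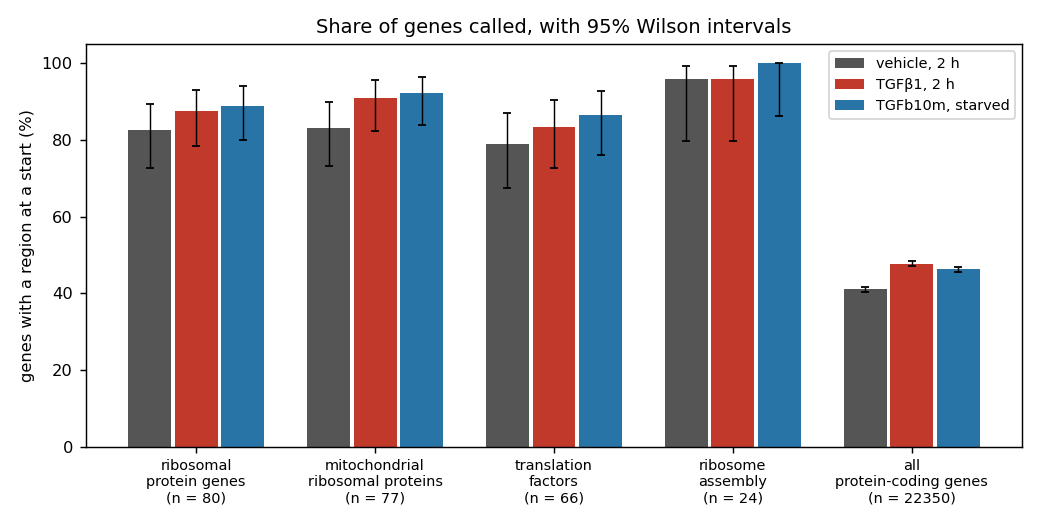
Share of genes with a region at a start (%, vertical axis) in the vehicle, TGFβ1 2 h and TGFb10m lists for ribosomal protein genes and comparison groups; bars are shares and error bars 95% Wilson intervals. The members sit between 82.5% and 88.8%, level with the other translation groups, while all protein-coding genes sit between 41.0% and 47.6%.

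All 66 members of the vehicle list were called in all 3 lists, as were 97.3% of the protein-coding genes called under vehicle. Another 4 members, among them Rpl13, Rpl36 and Rpl4, were called in the TGFβ and 10 min lists and not in the vehicle list. They are 5.00% of all members, near the 7.24% of all protein-coding genes that the TGFβ list called and the vehicle list did not. Most members were already called under vehicle. Among genes not called there, the TGFβ list called 4 of 14 members and 1619 of 13187 protein-coding genes. Rpl17, whose protein lines the exit of the peptide tunnel, was called only in the 10 min list, with a region of 215 bp reaching from -103 to 111 bp around the start, a pattern of 1.25% of members and 1.35% of protein-coding genes. None of the 80 members was called in the vehicle or TGFβ list and missed in the 10 min list, against 3.33% of protein-coding genes. The remaining 9 members were in no list. The TGFβ list is the longer one, with 38532 regions against 19648. When just its 19648 best-scoring regions were used, it called 64 members (80.0%, 70.0 to 87.3%), against 38.1% of protein-coding genes.

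The gained promoters carried small regions. At Rpl13, a large subunit protein, no interval of any width was listed for vehicle, and the TGFβ and 10 min regions were 272 and 485 bp wide with scores of 783 and 1000. Here the score is the scaled irreproducible discovery rate of the best peak of a region, capped at 1000, so a score at the cap marks the most reproducible peaks. At Rpl36 the TGFβ region ran from -140 to 76 bp and the 10 min region from -153 to 81 bp. Rpl4, which lines the peptide tunnel, was decided by the width limit. Its vehicle intervals were 146 and 114 bp wide, at -555 to -410 bp and at -323 to -210 bp, both under the limit of 150 bp. The interval at the same place in the TGFβ list was 155 bp wide (-552 to -398 bp), just inside the limit, and had a score of 1000. A 120 bp interval over the Rpl4 start itself (-70 to 49 bp) was listed for TGFβ and fell under the limit, and in the 10 min list a region of 818 bp covered the start. The start of Zwilch, a kinetochore gene on the opposite strand, lay inside the Rpl4 region.

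The members without any call fall into 2 kinds. Rpl3l, Rpl10l and Rpl39l are the muscle and testis paralogues, and the nearest region lay 3219, 1111242 and 116228 bp from the start in the vehicle list. Their relative Rps27l was called in all lists and had one of the widest regions, described below. The other 6 are ordinary ribosomal protein genes, among them Rpl3, which sits at the peptidyl transferase centre, Rpl15 of the large subunit, and Rps21 and Rps29 of the small subunit. At none of these 6 did any list hold an interval of any width within 1000 bp of any annotated start, before filtering or merging. The nearest vehicle region was 29021 bp away at Rpl3, 31840 bp at Rpl15, 5818 bp at Rps21 and 9530 bp at Rps29. In the TGFβ list these distances were 5332, 31806, 5834 and 9290 bp, and in the 10 min list they were 7748, 31771, 5819 and 9096 bp. The 3 lists were therefore blank at the same 6 promoters. RNA was not measured in these files, so whether the 6 genes were transcribed in these cells cannot be read from the lists.

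Sequence uniqueness was measured as the share of 32-base words within 150 bp of the commonest start that occur once in the mm9 genome, since ribosomal protein genes have many processed copies and reads from repeated sequence may be discarded. It was 99.6% at Rpl3, 90.0% at Rpl15, 100% at Rps21 and 81.1% at Rps29. The median over all members was 97.4% and the lowest value was 66.7%, at the stalk gene Rplp1, which was called in all lists with widths of 455, 446 and 648 bp. In all, 7 members lay under 80%, none of them among the 6. This is 8.75%, against 13.2% of protein-coding genes and 2.76% of those called in all lists. The median was 100% in both of these gene sets. The part of read mapping in the missing calls was not tested.

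A pair of members was called only away from the commonest start. Rpl13a counted as called in every list, but through a region at a start 7.67 kb upstream of its commonest start, in which the cytokine gene Flt3l also starts. Within 1000 bp of the commonest Rpl13a start no list held an interval of any width. Rpl18 was likewise called only away from its commonest start, with 2 regions in each list, the one used here lying at a start 4.14 kb upstream and shared with Sphk2. When only the commonest start was used, 64, 68 and 69 members were called (80.0%, 85.0% and 86.2%), against 38.4%, 44.5% and 43.4% of protein-coding genes.

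Pseudogenes of the family were also counted, with no other pseudogenes counted beside them. The annotation holds 162 processed or other pseudogenes named after members. A region lay within 1000 bp of the start of 5, 7 and 6 of them in the vehicle, TGFβ and 10 min lists (3.09%, 4.32% and 3.70%). No region in any list overlapped the body of a pseudogene, and a count of 0 of 162 allows a share of up to 1.85% (3 counts). Pseudogenes are near copies of the members, and the part of read mapping in this count was not tested.

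Where they were called, ribosomal protein promoters had narrower regions than genes at large. The median width was 452 bp in the vehicle list (quartiles 309.5 and 615 bp, 66 genes), against 583 bp (403 and 801 bp) over the protein-coding genes called there. It was 448.5 bp in the TGFβ list (324.8 to 621 bp), against 644 bp, and 696 bp in the 10 min list (560.5 to 832 bp), against 795 bp. Single members ran from 166 to 1567 bp in the vehicle list, from 155 to 1549 bp in the TGFβ list and from 215 to 1773 bp in the 10 min list. Mitochondrial ribosomal protein genes had medians of 467, 582 and 674 bp, and translation factor genes 632, 699 and 847 bp. The members are thus close to the mitochondrial group in the vehicle list, below it in the TGFβ list and slightly above it in the 10 min list. No test exists for these differences with 1 list each.

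**Figure D2:**
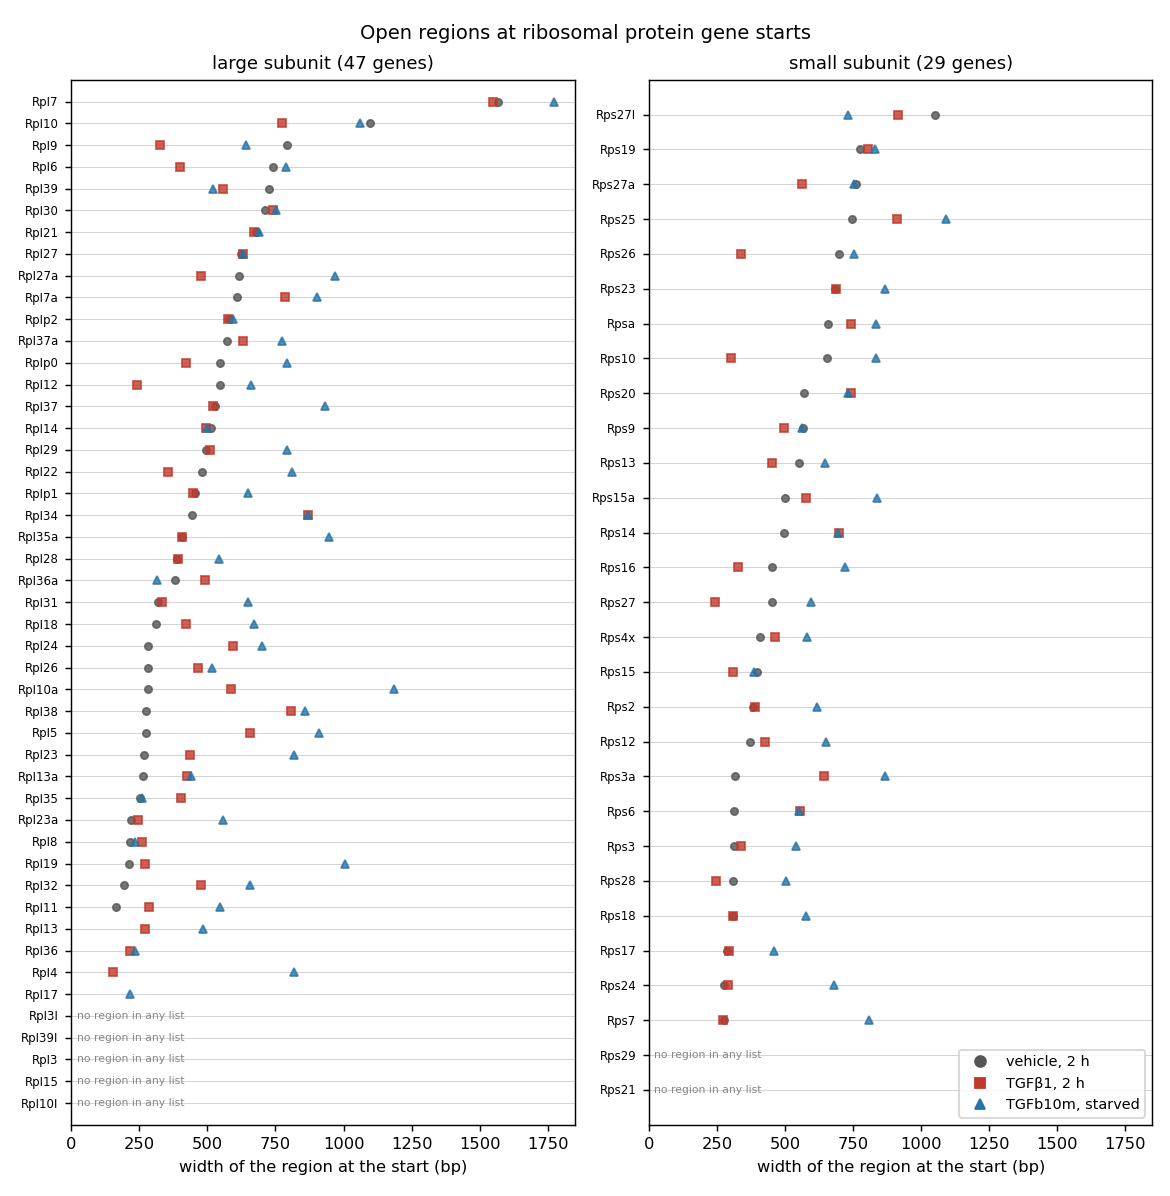
Width of the region at the start (bp, horizontal axis) of 76 members, each large subunit gene (left) and small subunit gene (right) in the vehicle (circle), TGFβ1 2 h (square) and TGFb10m (triangle) lists, ordered by vehicle width. Rpl7 holds the widest region in all 3 lists (1567, 1549 and 1773 bp), the triangles lie right of the circles for 56 of the 65 drawn genes called in both lists, and 7 of the 76 genes drawn have no region.

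The widest vehicle regions belonged to genes of different kinds. Rpl7, a large subunit protein next to the 5S rRNA, had 1567 bp in the vehicle, 1549 bp in the TGFβ and 1773 bp in the 10 min list, always with a score of 1000. Its region also held the start of Rdh10, a retinol dehydrogenase gene on the opposite strand. Rpl10, an X-linked gene whose protein joins last and completes the subunit, had 1097, 775 and 1061 bp. Rps27l had 1051, 915 and 732 bp, and so its region was widest under vehicle. Rpl9 had 792, 324 and 642 bp and shares its region with Lias, the lipoic acid synthase gene. Rps19, the gene most often mutated in Diamond-Blackfan anaemia, had 774, 804 and 831 bp. Nearly all of its vehicle region lay upstream of the commonest start (from -753 to 20 bp), and the 5′-most annotated start also lay inside that region.

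The narrowest vehicle regions were all at large subunit genes. Rpl11, which joins Rpl5 and the 5S rRNA in a particle that also binds Mdm2, had 166 bp in the vehicle list, 287 bp in the TGFβ list and 548 bp in the 10 min list. Its vehicle region ran from 206 to 371 bp past the start and did not cover it, while the TGFβ region ran from -206 to 80 bp, so that Rpl11 was the exception among the 66 members, 65 of which (98.5%) had overlapping vehicle and TGFβ regions, against 98.2% of protein-coding genes. Rpl32 had 193, 478 and 658 bp, and its vehicle region lay wholly upstream, from -401 to -209 bp. Rpl19, whose protein forms a bridge between the subunits, had 211, 269 and 1005 bp. Rpl8, at the peptidyl transferase centre, had 214, 259 and 235 bp and was narrow in all lists. Rpl23a, a docking site at the tunnel exit, had 221, 245 and 558 bp.

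The other members chosen for their roles spanned the range. The stalk proteins Rplp0, Rplp1 and Rplp2 recruit elongation factors. Rplp0 had 548, 423 and 793 bp in the vehicle, TGFβ and 10 min lists, with a score of 1000 in each. Rplp2 barely varied, with 581, 574 and 594 bp. Rps6, the substrate of S6 kinase downstream of mTOR, had 314, 555 and 550 bp, and its scores were 1000, 995 and 804. Rps3, at the mRNA entry channel, had 314, 337 and 539 bp. Rpsa, also known as the laminin receptor, had 657, 743 and 834 bp. Rps4x, an X-linked gene, had 408, 462 and 580 bp and stayed below the score cap with 653, 797 and 747. Rps27a, which is made as a fusion with ubiquitin, had 760, 563 and 753 bp.

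Between the vehicle and TGFβ lists, region widths at ribosomal protein genes differed in both directions. Of 66 members called in both lists, 39 were wider in the TGFβ list, 25 narrower and 2 equal, which makes 59.1% wider (interval 47.0 to 70.1%) against 62.9% of the 9024 protein-coding genes called in both, a share near the background. The median ratio of TGFβ to vehicle width was 1.03 (quartiles 0.87 and 1.29), and over protein-coding genes it was 1.08 (0.92 and 1.47). For mitochondrial ribosomal protein genes 75.8% of 62 were wider (63.8 to 84.8%), with a median ratio of 1.16. The interval of the members and that of the mitochondrial group overlap.

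The members with the largest ratios of TGFβ to vehicle width were all of the large subunit. Rpl38, known from the Tail short mouse, went from 276 bp in the vehicle list to 806 bp in the TGFβ list, a ratio of 2.92, and had 860 bp in the 10 min list. Its upstream edges lay at -135 and -136 bp and its downstream edges at 140 and 669 bp. Its TGFβ region was merged from 2 intervals, while its vehicle region was 1 interval. Rpl5, the partner of Rpl11, had 273 and 657 bp, a ratio of 2.41, and downstream edges at 173 and 545 bp. Each of these Rpl5 regions was 1 interval. Rpl24, the gene of the Belly spot and tail mouse, had 283 and 594 bp with downstream edges at 152 and 466 bp. Rpl32 had a ratio of 2.48. The TGFβ regions of Rpl24 and Rpl32 were also merged from 2 intervals each, against 1 interval under vehicle. Rpl10a had 282 and 586 bp (2.08), and there the upstream edge moved, from -89 to -379 bp.

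The smallest ratios came from both subunits. Rpl9 had a ratio of 0.41, with both edges drawn in, from -401 and 390 bp in the vehicle list to -258 and 65 bp in the TGFβ list. Rpl12, at the base of the stalk and head to head with Lrsam1, had 546 and 241 bp (0.44). Rps10 had 653 and 301 bp (0.46) and Rps26, at the mRNA exit, 699 and 337 bp (0.48). The vehicle region of Rps26 was merged from 2 intervals. Rps27, head to head with Rab13, had 451 and 244 bp (0.54). In the 10 min list none of these regions was as narrow as in the TGFβ list, with 642 bp at Rpl9, 659 bp at Rpl12, 833 bp at Rps10, 753 bp at Rps26 and 596 bp at Rps27. These genes were chosen for narrow TGFβ regions relative to vehicle. Among genes called in both the TGFβ and 10 min lists, the 10 min region was the wider one at 87.1% of members and 73.7% of protein-coding genes.

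The 10 min list had wider regions at nearly all members. Of the 66 genes called in both, 57 were wider in the 10 min than in the vehicle list (86.4%, interval 76.1 to 92.7%), against 83.5% of the 8997 protein-coding genes called in both, again near the background. The median ratio was 1.47 (quartiles 1.08 and 1.94) for members and 1.33 (1.06 and 1.81) for protein-coding genes. Large values were found at Rpl19 (4.76) and Rpl10a (4.20). The smallest were at Rps27l (0.70), Rpl39 (0.72), Rpl9 (0.81) and Rpl36a (0.83). The genes named here for their 10 min ratio were chosen after their values were seen. Serum and insulin, TGFβ1, time and the library cannot be told apart in this comparison, since they differ together between the lists.

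**Figure D3:**
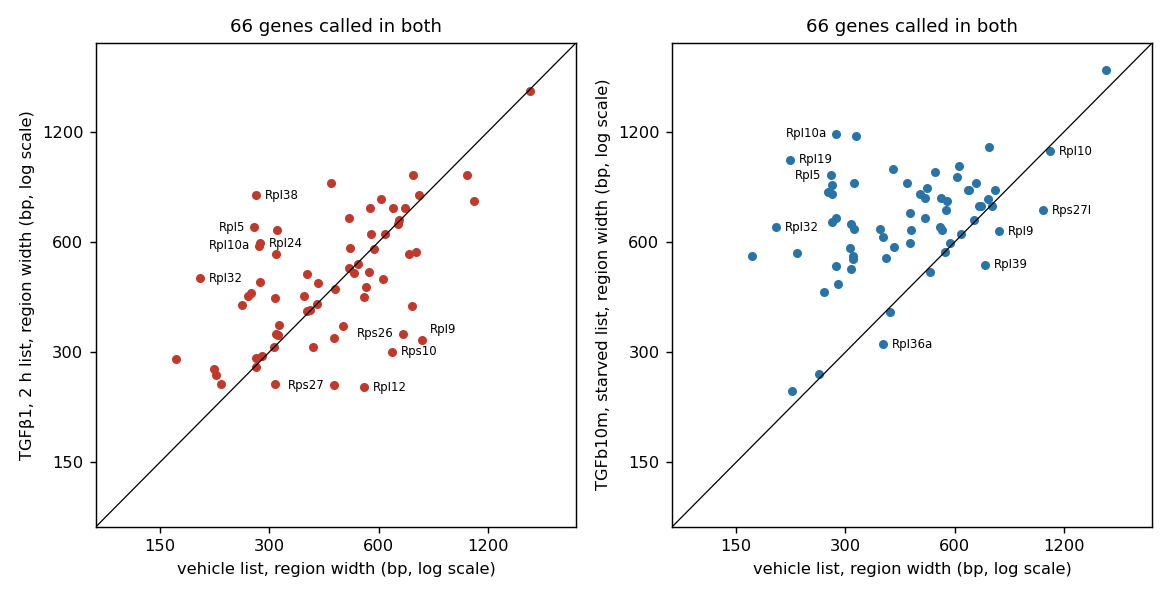
Region width (bp, log scales) in the TGFβ1 2 h list (left) and the TGFb10m list (right) against the vehicle list for the 66 ribosomal protein genes called in both; points are genes, the line marks equal width, and genes with ratios among the largest and smallest are named. On the left 39 points lie above and 25 below the line, on the right 57 lie above and 9 below.

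The regions lay over the start, reached further upstream than downstream in the vehicle and TGFβ lists, and reached about equally far to both sides in the 10 min list. A region covered the commonest start itself in 75.0% of the 80 members under vehicle, in 80.0% under TGFβ and in 85.0% of the 10 min list, against 33.9%, 39.2% and 40.1% of protein-coding genes. At 250 bp downstream the shares were 27.5%, 27.5% and 62.5% of members, against 19.6%, 25.1% and 32.2% of protein-coding genes. At 750 bp downstream they had dropped to 0, 0 and 1.25% of members, against 2.93%, 5.27% and 5.45%. Upstream at -250 bp they were 36.2%, 36.2% and 52.5% of members, against 20.2%, 23.9% and 29.4%. The members called in all lists reached a median of 238.5 bp upstream and 159 bp downstream in the vehicle list, 240.5 and 141 bp in the TGFβ list, and 319 and 333 bp in the 10 min list. In the 10 min list the downstream edge lay a median of 160 bp further out than in the vehicle list. Over the 8916 protein-coding genes called in all lists this median was 90.0 bp. The edge lay at least 100 bp further out in 38 of 66 members (57.6%, against 48.9%). In 4 members (6.06%, against 8.94%) it lay at least 100 bp further in. The upstream edge moved by a median of 29.5 bp, against 45.0 bp. In the TGFβ list the downstream edge lay at least 100 bp further out than in the vehicle list in 13 members and at least 100 bp further in in 13 others, while among protein-coding genes 31.1% moved out and 17.3% in.

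**Figure D4:**
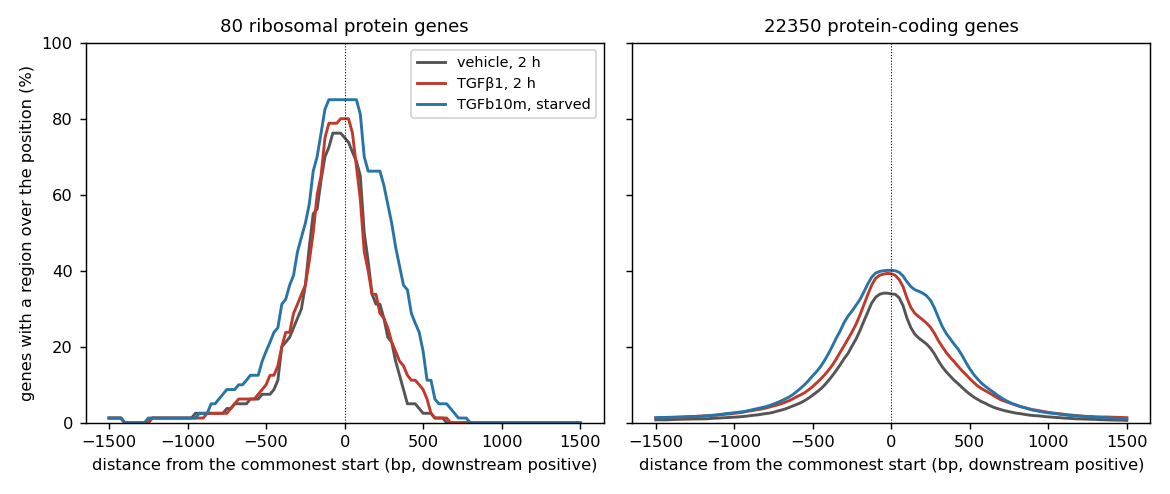
Share of genes with a region over each position (%, vertical axis) by distance from the commonest start (bp, downstream positive) for the 80 ribosomal protein genes (left) and all 22350 protein-coding genes (right) in the 3 lists. The members' curves are higher and narrower, and 250 bp downstream the TGFb10m curve stands at 62.5% where the other lists stand at 27.5%.

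The scores did not set ribosomal protein promoters above other promoters. The cap of 1000 was reached by 32 of 66 member regions in the vehicle list (48.5%, interval 36.8 to 60.3%), against 55.7% of the regions of called protein-coding genes. It was reached by 52 of 70 in the TGFβ list (74.3%, 63.0 to 83.1%), against 69.9%, and by 46 of 71 in the 10 min list (64.8%, 53.2 to 74.9%), against 57.9%. In all 3 lists 22 members were at the cap, among them Rplp0, Rpsa, Rps19, Rps27a, Rpl7 and Rpl9, which is 33.3% of the 66 against 47.0% of protein-coding genes. Another 22 reached the cap in the TGFβ list and not in the vehicle list (33.3%, against 26.1%), and 3 did the reverse, namely Rpl14, Rps3 and Rps6. Rpl12, Rpl13a, Rpl23a, Rpl39, Rpl8, Rps28 and Rps4x were at the cap in none. A region of a member held a median of 2 peaks in the vehicle and TGFβ lists and 3 in the 10 min list, against 3, 3 and 4.

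Several members share their promoter region with another gene. In the vehicle list 12 of 66 member regions (18.2%) also held the start of another protein-coding gene, against 21.7% over the protein-coding genes called. Examples are Rpl7a with Med22, Rps18 with Vps52, Rps25 with Trappc4, Rpl35a with Iqcg and Rps28 with Ndufa7, each pair on opposite strands. The accessible region of such a pair cannot be given to one of its genes. The median width was 498.5 bp for shared and 448.5 bp for unshared member regions in the vehicle list, and 405 and 465 bp in the TGFβ list, so the order of the medians turned between the lists. Ribosomal protein genes are also known as hosts of small nucleolar RNAs, which guide rRNA modification from inside their introns. In this annotation 30 of 80 members (37.5%) held such a gene on their own strand, against 1.20% of protein-coding genes. Hosts were called in 24, 27 and 28 of 30 cases in the vehicle, TGFβ and 10 min lists and the other members in 42, 43 and 43 of 50, while over all protein-coding genes 72.1%, 79.6% and 79.6% of hosts and 40.6%, 47.2% and 45.9% of the others were called. The median widths of host and other members were 537 and 426 bp in the vehicle list and 451 and 446 bp in the TGFβ list.

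The promoters of the members held more ETS cores and more pyrimidine runs at the start than promoters at large. The letters CCGGAAG were searched on both strands from 250 bases before to base 50 after the commonest start. They were found in 27 of 80 members (33.8%, interval 24.3 to 44.6%), against 11.1% of all protein-coding genes and 20.9% of the 8916 genes called in all lists. In the same window the YY1 core AAGATGG was in 11 members (13.8%, against 6.91% of all and 8.11% of genes called in all lists), and the longer form AAGATGGCG, which contains it, in 5 (6.25%, against 1.95% and 3.88%). The NRF1 letters GCGCATGCG were in 1 member (1.25%, against 2.14% and 3.95%) and CCAAT in 25 (31.2%, against 37.7% and 39.8%). TATAAA was in 9 members (11.2%), below the 13.4% of all genes and above the 6.19% of genes called in all lists. In 200 bp centred on the start TATAAA was in 12.5% of members, against 8.14% and 3.17%, and the NRF1 letters were in 3.75%, against 1.71% and 3.11%, so neither had 1 direction against all genes. Of the motifs tied to TGFβ signalling, the AP-1 letters TGAGTCA were in 3 members (3.75%, against 4.33% and 3.13%), the short SMAD letters CAGACA in 13 (16.2%, against 19.1% and 14.7%) and the SMAD palindrome GTCTAGAC in none, where 0 of 80 promoters allows a share of up to 3.75% (3 counts), against 0.183%. A run of at least 7 pyrimidines that came within 10 bp of the start was in 34 members (42.5%, 32.3 to 53.4%), against 19.8% of all genes and 18.0% of genes called in all lists, and a run of at least 9 in 23 (28.8%, against 9.50%). A match is a property of the sequence and no evidence of binding.

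**Figure D5:**
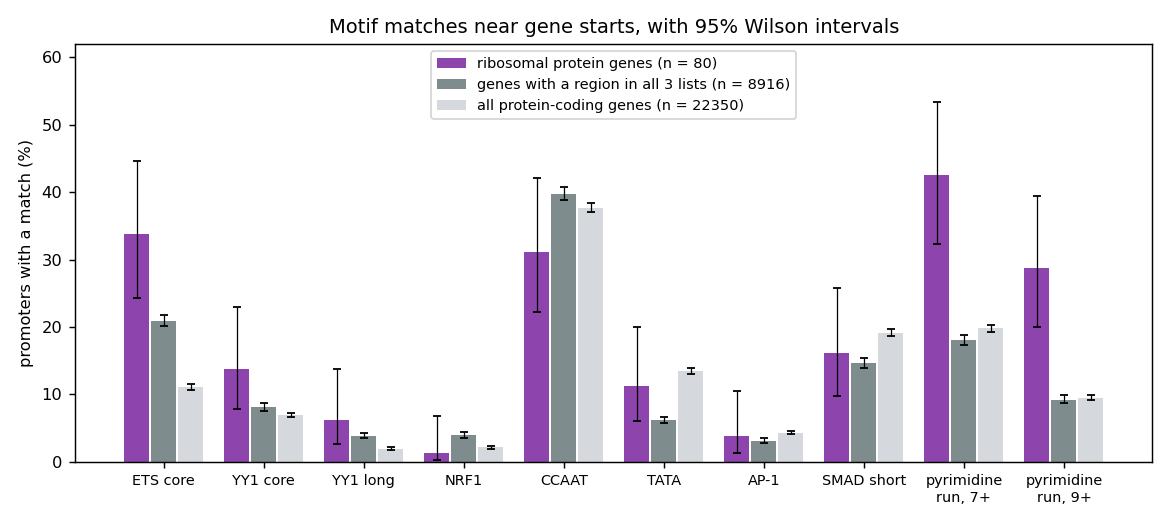
Share of promoters with a match (%, vertical axis) for each motif in ribosomal protein genes, genes with a region in all 3 lists and all protein-coding genes; bars are shares and error bars 95% Wilson intervals. The ETS core stands at 33.8% in the members against 11.1% of all genes and a pyrimidine run of 7 or more at 42.5% against 19.8%, while the members' intervals for AP-1 and the short SMAD letters include the shares of both other groups.

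The ETS core did not divide the called from the uncalled members. Of the 27 members with the ETS core, 22 were called in each of the 3 lists, and of the 53 without it 44, 48 and 49 were called. Over all protein-coding genes with the core 76.5%, 83.1% and 83.3% were called. The 5 uncalled holders include Rpl15, Rps21 and the testis paralogue Rpl39l. Median widths with and without the core were 349 and 466.5 bp in the vehicle list, 455.5 and 443 bp in the TGFβ list and 742.5 and 689 bp in the 10 min list, so no order held across the lists. The 11 members with the YY1 core, among them Rpl21, Rps16, Rps7 and Rps26, were called in each list (Rpl13a and Rpl18 through their upstream starts), as were 55, 59 and 60 of the 69 without it, and over all protein-coding genes with the core 47.6%, 52.6% and 52.5%. The median GC content was 56.1%, against 55.7% over all protein-coding genes and 61.7% over those called in all lists, while the observed over expected CpG ratio was 0.85 against 0.55, and 0.80 over genes called in all lists.

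Distal regions, which lie over 1000 bp from every annotated start, were counted within 50 kb of the 5′-most start of each member. In the vehicle list 36 of 80 members had at least 1 (45.0%, interval 34.6 to 55.9%), against 37.2% of protein-coding genes. In the TGFβ list 61 had 1 or more (76.2%, 65.9 to 84.2%), against 62.6%, and in the 10 min list 50 (62.5%, 51.5 to 72.3%), against 50.6%. The mean number per member was 0.59, 1.73 and 1.21, against 0.59, 1.47 and 1.00 over protein-coding genes. Mitochondrial ribosomal protein genes had shares of 40.3%, 76.6% and 61.0%. The highest numbers were at Rps21, with 4, 8 and 6, a gene whose own start held no interval. Rps14 had 1, 7 and 3, Rpl10a and Rps16 had 1 and 5 in the vehicle and TGFβ lists, and Rpl19 had 0 and 5 (these were chosen after their values were seen). Of the 135 TGFβ distal regions near members, 98 overlapped no vehicle region (72.6%, 64.5 to 79.4%), against 64.6% of all 27584 distal regions of that list, and 36 of those 98 (36.7%, 27.9 to 46.6%) overlapped a region of the 10 min list, against 28.5%. With the TGFβ list shortened to 19648 regions as above, 30 members (37.5%, 27.7 to 48.5%) had a distal region, against 36.6% of protein-coding genes. Which gene a distal region acts on cannot be read from its distance.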

How the data were processed

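ATAC-seq peak lists of NMuMG cells were used as deposited: 3 lists for 4 samples, each with an interval and a score on every line and 1 line per summit. According to the study's methods the authors ran the ENCODE ATAC-seq pipeline with alignment to mm9, called peaks with MACS2 2.1.2 and retained peaks with an irreproducible discovery rate of at most 0.05. The aligner is not given in the sources used here. The score deposited by the authors is the scaled irreproducible discovery rate, from 540 to a cap of 1000, and was read within a list only. The methods speak of biological replicates behind this rate, whereas each condition has 1 sample in the labels, and what the replicates were was not settled. For these calls the methods name no separate shift of reads to the Tn5 cut position, which can move the edges of an interval by some bases.

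The vehicle, TGFβ and 10 min lists held 48339, 87916 and 75736 peaks in 23070, 49585 and 29837 distinct intervals. Intervals under 150 bp were dropped and the rest merged over gaps under 1000 bp, which gave 19648, 38532 and 26732 regions, each with its highest score. Genes came from GENCODE vM1 on 20 chromosomes. Where several regions lay at a gene, the one nearest to its 5′-most start was used. The edges of regions are given from the commonest start. Sequences came from the NCBIM37 (mm9) genome. Python 3 scripts computed all values, with numpy and scipy for quartiles and Wilson intervals, and were tested on simulated data with known answers. The lists hold no depth, the read totals given with the study were not used, and no test between lists was made.

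The members and the comparison lists were chosen with earlier results of these data known. Genes named are the members not called in all 3 lists, the 5 widest and 5 narrowest vehicle regions, the 5 largest and 5 smallest TGFβ to vehicle ratios, and 12 members with textbook roles, with exceptions marked as chosen after their values were seen. Alternatives concerned merging, width, score, list length, the start, the window, the distance, the paralogues and the motif window. The commonest start and the wider search for pyrimidine runs were added after seeing the data. Some items that meet these rules are not reported here.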

Additional observations from a re-analysis of the deposited data

How the results depend on the processing

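No paired analysis was possible because no result comes from a test between samples. Of 143 values recomputed, 117 lay inside the interval of the value reported (Wilson for shares, order statistics for median widths) and 26 outside it. With intervals under 300 bp dropped, the vehicle and TGFβ lists called 61.2% and 66.2% of members, and 48.8% and 51.2% had a distal region in the TGFβ and 10 min lists. With peaks at or above the median score of their own list, 57.5%, 72.5% and 73.8% of members were called in the vehicle, TGFβ and 10 min lists, 71.7%, 89.7% and 78.0% of their regions were at the score cap, and 11.2%, 31.2% and 23.8% had a distal region. With intervals as deposited, and with overlapping intervals merged only, the median TGFβ width was 396 bp in both cases. At equal list length 37.5% and 50% of members had a distal region in the TGFβ and 10 min lists, and within 10 kb 6.25%, 21.2% and 16.2% had one in the vehicle, TGFβ and 10 min lists. The shares of members called or with a distal region are given here without a share of all genes. In 200 bp centred on the start, CCAAT fell in 21.2% of members (interval 13.7 to 31.4%). There the AP-1 letters fell in 0 (0 to 4.58%) and the short SMAD letters in 7.50% (3.48 to 15.4%). Each interval includes the share of all protein-coding genes and that of genes called in all lists. These shares were 2.62% and 2.06% for AP-1 and 13.3% and 8.73% for the short SMAD letters. Pyrimidine runs were in 65.0% of members with 5 or more bases (against 44.8% of all protein-coding genes) and in 28.8% with 9 or more (against 9.50%). Runs of 7 or more within 49 bp of the start (an alternative added after seeing the data) were in 76.2%, against 51.6%. By construction, higher width and score limits leave fewer regions, shorter distances hold fewer regions, and shorter runs are commoner. The centred window does not lie inside the main window, so its counts could go either way. In it the YY1 core was in 16.2% of members (13.8% in the main window) and TATAAA in 12.5% (11.2%). The ETS core was in 33.8% in both windows. No other cause was tested. Leaving out the 4 paralogues and using the 5′-most or the commonest start moved no value out of its interval. Counts of called genes depend on depth, which the lists do not hold.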
